A study of Rattus norvegicus with 10 samples.

Results

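Transcripts of 4 genes of neurotrophin and NMDA receptor signalling were followed in the cerebral cortex of rat fetuses whose mothers had received oxytocin or saline. The genes are Bdnf (ENSRNOG00000047466), Ntrk2 (ENSRNOG00000018839), Grin1 (ENSRNOG00000011726) and Grin2b (ENSRNOG00000008766). They were taken by Ensembl identifier and expected chromosome, and all 4 of 4 were found on that chromosome among the 26404 features listed for each library. The oxytocin group held 5 fetuses from 5 dams given 100 mcg per kg intravenously, and the saline group held 5 fetuses from 5 dams given an equal volume of saline. Each fetus contributed 1 library made by oligo-dT selection from the right cortex, 24 h after dosing. All 10 fetuses were Sprague Dawley animals at embryonic day 21, with no other genotype named in the labels, and all RNA had an integrity number above 9.5. The labels used here do not give the sex of the fetuses, and a single dose and time were sampled. No measure of contractions was used here, so effects of the drug itself and of any contractions cannot be told apart.

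Brain-derived neurotrophic factor, the product of Bdnf, is a secreted growth factor that binds the receptor tyrosine kinase TrkB, the product of Ntrk2, and promotes survival, growth and synapse maturation of cortical neurons. NMDA receptors are glutamate-gated calcium channels built from obligatory GluN1 subunits, encoded by Grin1, together with GluN2 subunits. GluN2B, encoded by Grin2b, is the GluN2 subunit that prevails in the cortex before birth. Calcium entry through these channels is a known stimulus for Bdnf transcription, and TrkB signalling in turn modulates NMDA receptors.

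The 4 features differ widely in how much of the genome they cover. In the coordinates of the files, for which the submitters' processing notes name Rnor_5.0, Bdnf lies on the plus strand of chromosome 3 from 107390648 to 107421863 and is listed with 2 exon blocks of 3961 bases in all, 3613 of them in a single block. Ntrk2 lies on the minus strand of chromosome 17 from 8156432 to 8464507, with 18 exon blocks summing to 4750 bases. Grin1 lies on the minus strand of chromosome 3 from 2489166 to 2515963, where 61 listed intervals merge into 21 exon blocks of 4222 bases. Grin2b lies on the minus strand of chromosome 4 from 233824034 to 234258927, with 13 exon blocks of 5259 bases spread over 434894 bases. Each count is a sum over the listed exons of a gene, so full-length and truncated TrkB and the GluN1 splice forms cannot be told apart. For Bdnf, any exon outside the 2 listed blocks is not counted, and transcripts from different start sites cannot be told apart either.

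Other features share exonic sequence with Grin1 and Grin2b on the opposite strand. ENSRNOG00000046756 (chromosome 3, 2493905 to 2494904, plus strand) overlaps exons of Grin1 and received 3 counts over all libraries, found in 2 of them. ENSRNOG00000045100 (chromosome 4, 233833468 to 233833572, plus strand) overlaps an exon of Grin2b and was listed at 0 in all 10 libraries. Whether strand was used in counting is not given in the sources used here. No listed feature overlapped Bdnf or Ntrk2.

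The start sites are shown because Bdnf is known for its many alternative promoters, which a count per gene does not separate. RefSeq (GRCr8) gave start-site windows for 2 of the 4 genes, 6 for Bdnf and 1 for Grin1, and the 250 bases before each start were searched on both strands. Of the 6 Bdnf windows, 1 held the letters TGACG or CGTCA, the core of the cAMP response element (CRE) bound by CREB, a factor known to act downstream of calcium. That window and the Grin1 window are printed below, 5′ to 3′ on the strand of the gene, with these letters in capitals.
Bdnf, chr3:116637608-116637857, plus strand: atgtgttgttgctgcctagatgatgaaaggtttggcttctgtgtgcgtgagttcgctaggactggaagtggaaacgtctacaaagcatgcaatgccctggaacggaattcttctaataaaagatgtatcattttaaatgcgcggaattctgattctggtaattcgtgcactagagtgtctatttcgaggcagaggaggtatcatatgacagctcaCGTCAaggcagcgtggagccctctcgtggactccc
Grin1, chr3:28528755-28529004, minus strand: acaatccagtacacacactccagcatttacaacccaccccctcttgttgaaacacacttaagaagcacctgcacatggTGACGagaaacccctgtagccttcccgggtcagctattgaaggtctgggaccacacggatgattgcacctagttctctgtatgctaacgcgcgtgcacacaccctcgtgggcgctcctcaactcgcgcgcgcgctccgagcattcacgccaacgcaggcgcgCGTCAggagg
The match in the Bdnf window began 35 bases before the start site, and those in the Grin1 window 172 and 10 bases before it. The same letters occurred in 18.2% of all 33469 RefSeq windows of this length. The full palindrome TGACGTCA, which holds both core forms, was in 0 of the 7 windows of these genes and in 1.59% of all windows. GGGCGG or CCGCCC, the GC box, occurred 2 times in another Bdnf window and not in the Grin1 window, against 30.5% of all windows with a match. TATAAA or TTTATA was present in 1 Bdnf window, against 12.9% of all windows, and CACGTG, an E-box, in none of the 7 windows, against 5.59%. The Grin1 window held 19 CpG dinucleotides, more than 81.6% of all windows, while the printed Bdnf window held 11. These matches are letters in a sequence, and no binding was measured.

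Per length, the receptor genes were far more abundant than the ligand. Averaged over all libraries, Ntrk2 stood at 79.4 RPKM (the deposited reads per kilobase of listed exon, scaled to a common library total), Grin1 at 40.4, Grin2b at 38.0 and Bdnf at 1.21. Ntrk2 was above 95.9% of the 26404 listed features, Grin1 above 90.5%, Grin2b above 89.7% and Bdnf above 51.6%. In each of the 10 libraries Ntrk2 was higher than Grin1, by a factor of 1.75 to 2.29, and both NMDA receptor genes were at least 17.55 times as high as Bdnf. Grin1 and Grin2b did not differ beyond the spread between fetuses: Grin1 was the higher of the pair in 7 of 10 libraries, with ratios of Grin1 to Grin2b from 0.874 to 1.26. These ratios depend on the exon lengths listed.

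Library totals ran from 18555172 to 30404127 counts, and 14400 features were kept after removal of low counts, all 4 genes among them. Oxytocin and saline libraries were compared with edgeR's quasi-likelihood test over those features, with p adjusted by the Benjamini-Hochberg method and called under 0.05. None of the 4 genes passed, and neither did any other feature (0% of 14400). DESeq2 called 7 of the 5338 features to which it gave an adjusted p, and Bdnf had none. With limma 0 of 14400 were called. None of the 4 genes was called in either. At an unadjusted p under 0.05 there were 514 features, or 3.57%, and 1 of the 4 genes, Ntrk2. The log2 fold changes of 3 of the 4 genes were above 0, with a median over the 4 of 0.13, whereas 48.2% of all tested features were above 0 with a median of -0.003. Ntrk2, Grin1 and Grin2b were each at least 0.1 above 0 on this scale, as were 14.1% of all tested features, and no test of the 4 as a list was made because they were chosen with earlier results known. In bulk tissue, a change in the number of cells that express a gene and a change in RNA per cell cannot be told apart.

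**Figure D1:**
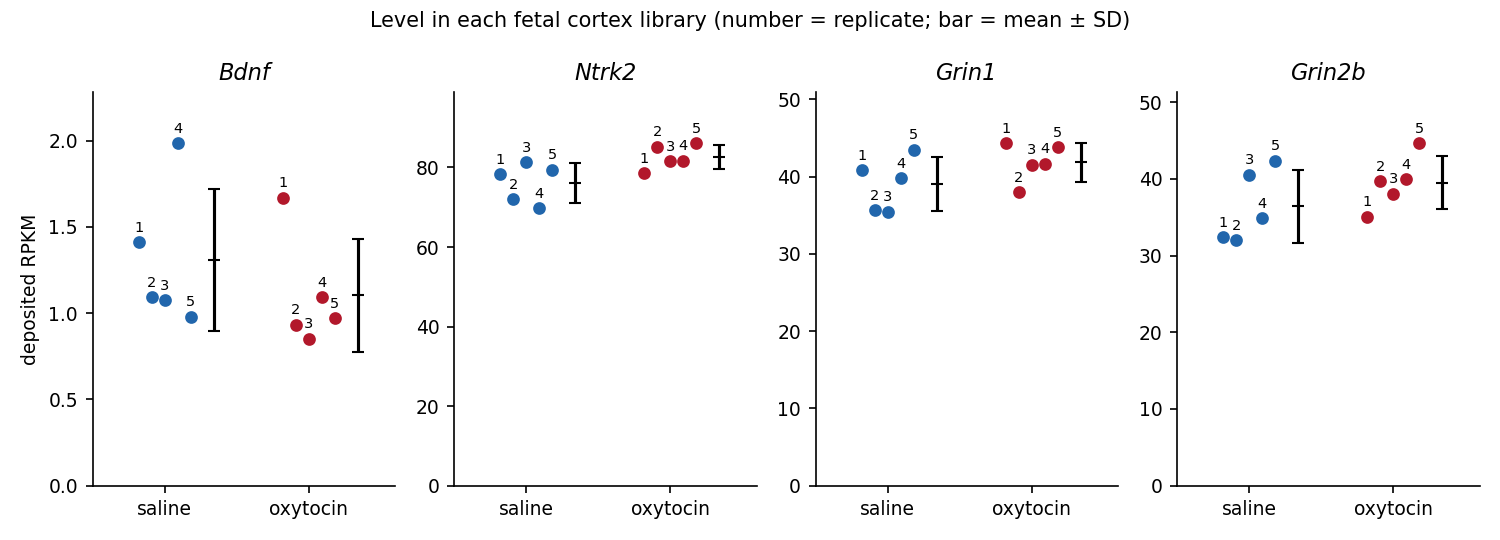
Deposited RPKM (vertical axes, from 0) of each gene in the 5 saline and 5 oxytocin libraries, numbered by replicate, with the group mean and SD as a black bar. The groups overlap for each gene, and Bdnf is high in saline replicates 1 and 4 and in oxytocin replicate 1.

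Bdnf, the ligand, was the least abundant of the genes and the most variable. In oxytocin replicates 1 to 5 its level was 1.67, 0.934, 0.852, 1.09 and 0.971 RPKM, from 201, 92, 75, 85 and 72 counts. In saline replicates 1 to 5 it was 1.41, 1.09, 1.07, 1.98 and 0.980 RPKM, from 110, 90, 84, 147 and 72 counts. A single fetus of the oxytocin group and a pair in the saline group were high, and the other 7 lay close together in both groups. On the log2 CPM scale, where CPM is the count scaled to a common library total, oxytocin fetuses averaged 2.13 ± 0.37 and saline fetuses 2.34 ± 0.41 (SD over 5 fetuses per treatment). The log2 fold change was -0.21 ± 0.22 (SE), with a 95% interval from -0.69 to 0.28. Its p in the edgeR test was 0.371 before adjustment and 0.9997 after it. Expressed as percent change, this interval runs from -38.0 to 21.0, so neither direction could be told with this spread and number of fetuses. The value rested on single libraries: without saline replicate 4 the log2 fold change was -0.006, and without oxytocin replicate 1 it was -0.42 (adjusted p = 0.9987 in the same edgeR test).

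The scatter of Bdnf was larger than the Poisson error of its counts. The exact 95% Poisson interval of its count was 174 to 231 in oxytocin replicate 1 and 124 to 173 in saline replicate 4, the libraries with the highest counts, and 56.3 to 90.7 in the libraries with 72 counts. They cover counting error alone, because reads without molecular identifiers may be copies of 1 molecule. The SD within a group was 0.39 on the log2 CPM scale, and counting alone would give about 0.15, or 14.5% of the variance. Among 1209 features whose mean level was within 0.5 log2 CPM of that of Bdnf, 92.9% had a smaller SD, with a median of 0.20.

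Ntrk2, the TrkB receptor gene, had the smallest unadjusted p of the 4. Its level was 78.6, 85.2, 81.6, 81.7 and 86.1 RPKM in oxytocin replicates 1 to 5 and 78.3, 72.0, 81.3, 69.7 and 79.5 RPKM in saline replicates 1 to 5. On the log2 CPM scale, 4 of the 5 oxytocin libraries exceeded saline replicate 3, the highest of its group, and the exception was oxytocin replicate 1, so the groups overlapped. Groups without any overlap, a class that does not include Ntrk2, were found for 0.701% of the tested features. The share of features with 4 of 5 libraries beyond the other group was not computed. Oxytocin fetuses averaged 8.63 ± 0.060 and saline fetuses 8.48 ± 0.099 log2 CPM (SD over 5 fetuses per treatment). The log2 fold change was 0.14 ± 0.051 (SE), with a 95% interval from 0.03 to 0.25, which corresponds to 2.41% to 19.3% more after oxytocin. Its edgeR p was 0.0141 before adjustment, the 122nd smallest of 14400, and 0.9997 after it. An exact two-sided permutation test of its log2 CPM gave an unadjusted p of 0.0159, where 0.0079 is the smallest that 5 against 5 allows, and an adjusted p of 1 over all features.

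With 6190 to 11353 counts per library, counting error made up about 4.0% of the variance of Ntrk2 within a group. Its SD of 0.082 log2 CPM was close to the median of 0.080 among 456 features at a like level.

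Grin1, the obligatory NMDA receptor subunit, showed a difference of similar size with more overlap. Its level was 44.3, 38.0, 41.5, 41.6 and 43.8 RPKM in oxytocin replicates 1 to 5 and 40.9, 35.6, 35.4, 39.8 and 43.5 RPKM in saline replicates 1 to 5. Saline replicates 2 and 3 were the lowest of all, whereas saline replicate 5 was close to the highest oxytocin libraries. Oxytocin fetuses averaged 7.48 ± 0.088 and saline fetuses 7.35 ± 0.13 log2 CPM (SD over 5 fetuses per treatment). The log2 fold change was 0.13 ± 0.065 (SE), with a 95% interval from -0.01 to 0.27. The edgeR p for Grin1 was 0.0736 before adjustment and 0.9997 after it. The percent change therefore lay between -0.956 and 20.2 at 95% confidence.

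Grin2b, the gene for the glutamate-binding subunit GluN2B, had a larger SD between fetuses than Grin1. Its level was 35.1, 39.7, 38.0, 40.0 and 44.6 RPKM in oxytocin replicates 1 to 5 and 32.4, 32.01, 40.5, 34.8 and 42.4 RPKM in saline replicates 1 to 5. The saline libraries formed a lower set of 3 and a higher pair, replicates 3 and 5. All 5 oxytocin libraries lay above that lower set, by little for oxytocin replicate 1 (35.1 RPKM against 34.8 in saline replicate 4). Oxytocin replicate 5 alone exceeded the higher pair. These sets were drawn after the values had been seen. Oxytocin fetuses averaged 7.71 ± 0.13 and saline fetuses 7.56 ± 0.19 log2 CPM (SD over 5 fetuses per treatment). The log2 fold change was 0.14 ± 0.087 (SE), with a 95% interval from -0.05 to 0.33. For Grin2b the edgeR p was 0.125 before adjustment and 0.9997 after it. The percent change lay between -3.10 and 25.8 at 95% confidence.

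**Figure D2:**
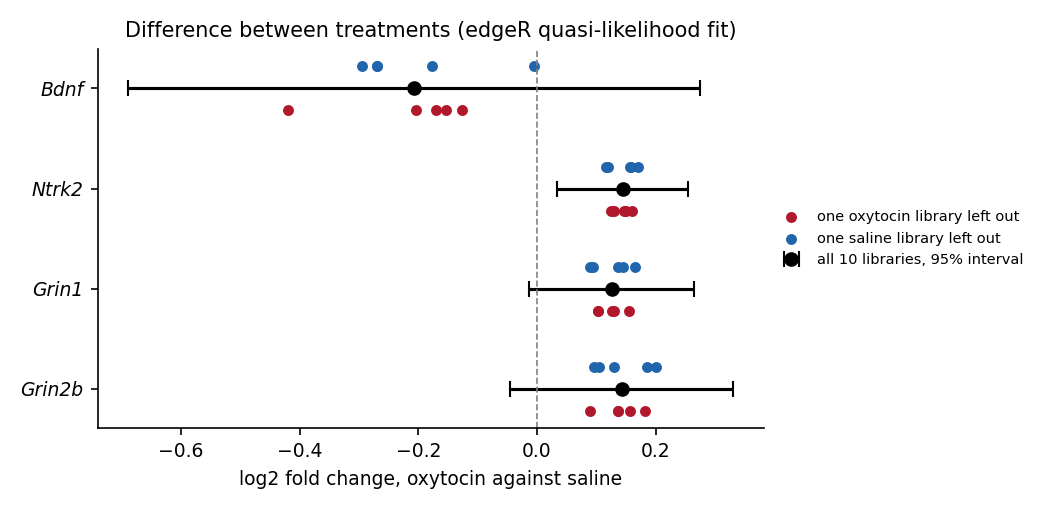
Log2 fold change of oxytocin against saline (horizontal axis) for each gene, with the edgeR value and 95% interval from all 10 libraries in black and the values with 1 oxytocin (red) or 1 saline (blue) library left out. The 3 receptor genes stay between 0.09 and 0.20, while Bdnf moves from -0.42 to -0.006.

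Leaving out single libraries moved the receptor genes less than it moved Bdnf. Over the 10 fits without 1 library, the log2 fold change of Ntrk2 ran from 0.12 to 0.17, that of Grin1 from 0.09 to 0.17 and that of Grin2b from 0.09 to 0.20, with adjusted p from 0.812 to 0.9999 in edgeR's quasi-likelihood test. The unadjusted p of Ntrk2 was under 0.05 in 10 of these 10 fits, that of Grin1 in 2 and that of Grin2b in 1. Over all tested features, from 420 of 14467 to 841 of 14469 were under 0.05 in these fits. The 841 came without saline replicate 5, the fit that gave the Grin2b case and 1 of the 2 Grin1 cases. The fits share most of their libraries, so they are not independent. Of the receptor genes, Grin2b alone moved by over 1.5 times, to 0.089 without oxytocin replicate 5.

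**Figure D3:**
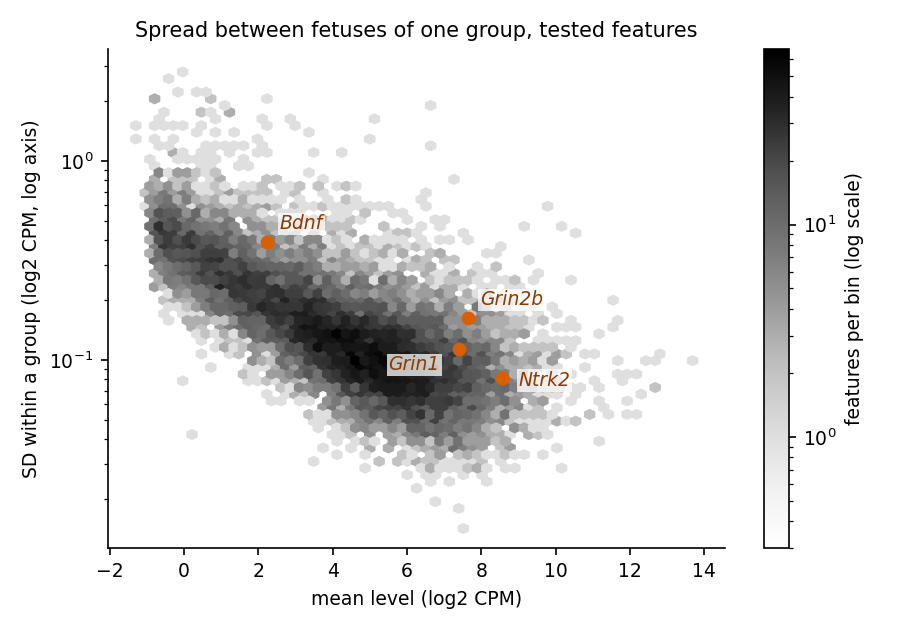
SD within a group (vertical, log axis) against mean level (horizontal, log2 CPM) for the 14400 tested features, shaded by the number per bin, with the 4 genes in orange. Bdnf and Grin2b lie in the upper part of the features at their level, at SDs of 0.39 and 0.16, while Ntrk2 lies in the middle at 0.082.

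Counting error was a small part of the spread of the NMDA receptor genes. Grin2b held 3354 to 5608 counts per library and Grin1 2953 to 5687, and counting error made up 1.90% and 4.63% of their variance within a group. The SD of Grin2b was 0.16 log2 CPM, larger than that of 91.9% of 991 features at a like level, which had a median of 0.082. For Grin1 the SD was 0.11, larger than that of 76.6% of 1140 such features.

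The balance of the NMDA receptor subunits can be read within a library, where scaling between libraries has no part. The ratio of Grin2b to Grin1, from RPKM with 0.1 added, was 0.792, 1.05, 0.917, 0.960 and 1.02 in oxytocin replicates 1 to 5. In saline replicates 1 to 5 it was 0.793, 0.898, 1.14, 0.875 and 0.974. The groups overlapped throughout, with mean log2 ratios of -0.086 ± 0.16 for oxytocin fetuses and -0.11 ± 0.20 for saline fetuses (SD over 5 per treatment). The difference of 0.020 between the groups was small beside the SD of 0.18 within a group, and its sign depended on single libraries: it was -0.038 without saline replicate 1, -0.002 without saline replicate 4, -0.018 without oxytocin replicate 2, -0.009 without oxytocin replicate 5, and up to 0.094, without saline replicate 3. No test was made of this ratio for the same reason as for the list.

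The ratio of receptor to ligand varied mainly through Bdnf, the more variable of the pair. Ntrk2 to Bdnf stood at 44.5, 82.5, 85.8, 68.6 and 80.5 in oxytocin replicates 1 to 5 and at 51.9, 60.4, 69.3, 33.5 and 73.7 in saline replicates 1 to 5. The mean log2 ratio was 6.14 ± 0.39 for oxytocin fetuses and 5.80 ± 0.45 for saline fetuses (SD over 5 per treatment), a difference of 0.34 against an SD of 0.42 within a group. Without saline replicate 4 the difference was 0.156, and without oxytocin replicate 1 it was 0.506. In 3 oxytocin libraries the ratio exceeded the highest saline value, and the lowest value of each group came from a library high in Bdnf.

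The fetuses high in Bdnf also stood apart in the rest of the transcriptome. The first principal component of the tested features without the 4 genes held 28.2% of the variance of log2 CPM. Oxytocin replicate 1, saline replicate 1 and saline replicate 4 scored 20.9, 18.8 and 21.9 on it, and the other 7 libraries scored from -18.8 to -1.37. The gap between these sets was 49.6% of the whole range. Bdnf was 2.50 to 2.99 log2 CPM in those 3 libraries and 1.80 to 2.16 in the other 7. The same 3 libraries had the lowest log2 ratios of Grin2b to Grin1, from -0.34 to -0.19, against -0.15 to 0.19 in the others. Ntrk2, Grin1 and Grin2b taken singly overlapped between the sets, with Ntrk2 at 8.37 to 8.55 log2 CPM in the 3 and 8.39 to 8.70 in the 7. The totals of these libraries, 30404127, 19689446 and 18700052 counts, include the deepest library and others of ordinary depth. What sets these libraries apart was not tested.

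**Figure D4:**
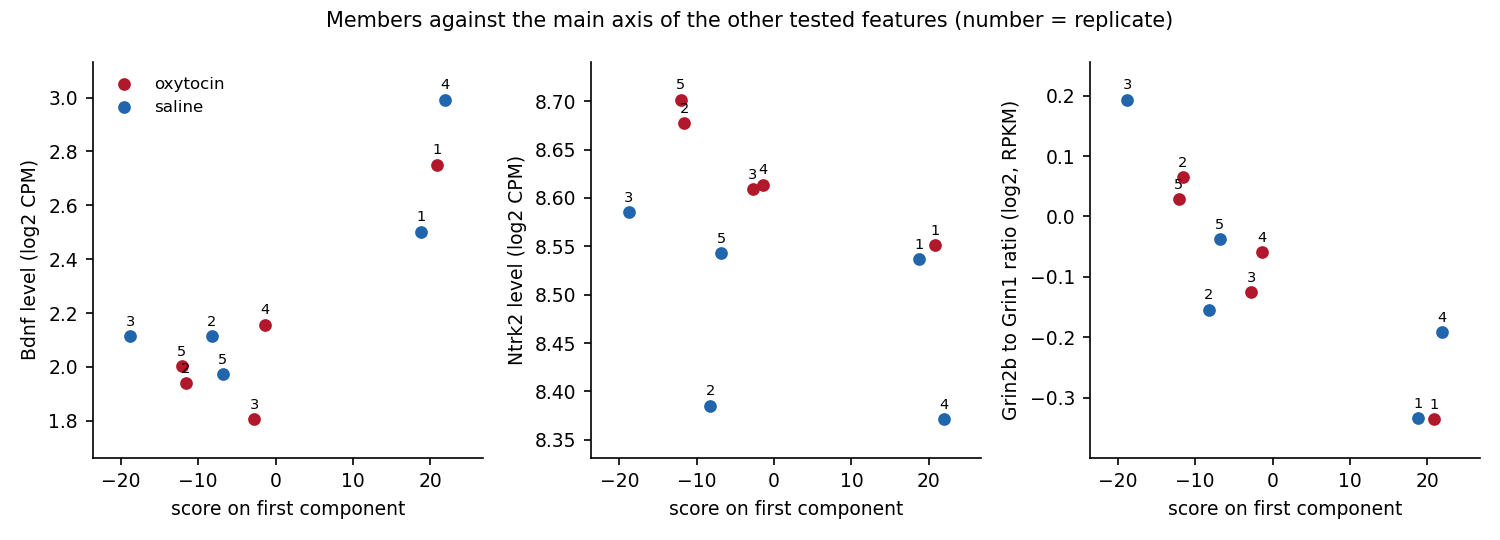
Score on the first principal component of the other tested features (horizontal) against the level of Bdnf, the level of Ntrk2 and the log2 ratio of Grin2b to Grin1 (vertical axes), by library and replicate number. At scores of 18.8 to 21.9, the 3 libraries on the right have the highest Bdnf and the lowest Grin2b to Grin1 ratios, and they come from both treatments.

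Without those 3 libraries, 4 oxytocin and 3 saline libraries remained, and edgeR called 0 of 14487 features at an adjusted p of 0.05 and 759 at an unadjusted one. The log2 fold change of Bdnf was then -0.095 and that of Ntrk2, Grin1 and Grin2b 0.14, 0.14 and 0.12, with adjusted p from 0.947 to 0.988 in that test. With the component as a covariate over all 10 libraries, the values were -0.15 for Bdnf and 0.14, 0.14 and 0.12 for the receptor genes, and edgeR's adjusted p ran from 0.732 to 0.906. Both fits were chosen after the data had been seen. The libraries left out are the 3 with the highest Bdnf, so its value nearer to 0 without them follows from that choice.

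Correlations of log2 CPM across fetuses were computed for 6 pairs of the 4 genes. Pairs of receptor genes used all 10 libraries, and pairs with Bdnf used 7, because its values form separate clusters. All 10 had been planned for each pair. The 7 were chosen after the data had been seen, and r over 10 is not given for those pairs. Both treatments were pooled without centring on group means. The means of the receptor genes were 0.13 to 0.15 log2 CPM higher after oxytocin, and these differences enter the values. For Ntrk2 and Grin2b, Pearson's r was 0.768 (permutation test, p = 0.00914, adjusted p = 0.0548 over the 6 pairs) and Spearman's rho was 0.697 (permutation test, p = 0.0306, adjusted p = 0.184). Neither passed 0.05 after adjustment. Without the 2 libraries farthest from the median of Ntrk2, r was 0.673 over 8 libraries. Of the tested features, 1.70% had an r with Ntrk2 at least as far from 0.

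Differences between the correlations of different pairs were not tested. For Grin1 and Grin2b, the partner subunits, r was 0.385 (permutation test, p = 0.272, adjusted p = 0.532) and rho 0.503 (permutation test, p = 0.143, adjusted p = 0.430), and r was 0.324 without 2 libraries. Of the tested features, 43.9% had an r with Grin1 at least as far from 0. For Ntrk2 and Grin1 r was 0.404 (permutation test, p = 0.246, adjusted p = 0.532) and rho 0.394 (permutation test, p = 0.262, adjusted p = 0.523). Without the 2 libraries farthest from the median of Ntrk2, r for this pair was -0.009. Both genes had higher means after oxytocin, which also enters the pooled r. An r with Ntrk2 at least as far from 0 was found for 26.5% of the tested features. Within the 7 libraries lower in Bdnf, r of Bdnf was -0.354 with Ntrk2, -0.407 with Grin1 and -0.200 with Grin2b, with adjusted p from 0.532 to 0.687 in exact permutation tests, and rho ran from -0.214 to 0.036, with adjusted p from 0.856 to 0.964. Without the 2 of these libraries farthest from the median of Bdnf, r over the remaining 5 was -0.633, -0.700 and -0.582, so these values rested on few libraries. An r with Bdnf at least as far from 0 over the 7 libraries was found for 41.6%, 34.1% and 66.0% of the tested features, in the same order.

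For each gene, the tested feature with the most similar profile was found by Pearson's r of log2 CPM over the 10 libraries. These features were picked as the highest of 14399, so no test applies, and the files pair their identifiers with no name. For Grin2b it was ENSRNOG00000004810 (chromosome 3, 134642689 to 134801508, plus strand), with r of 0.980, rho of 0.952 and 0.959 without 2 libraries. For Grin1 it was ENSRNOG00000000902 (chromosome 12, 8423548 to 8442481, minus strand), with r of 0.979, rho of 0.952 and 0.933 without 2 libraries.

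The closest profile to Ntrk2 was that of ENSRNOG00000033531 (chromosome 4, 15684840 to 16105448, minus strand), with r of 0.951, rho of 0.879 and 0.829 without 2 libraries. For Bdnf it was ENSRNOG00000032490 (chromosome 13, 36230292 to 36366642, plus strand), whose likeness rested on the 3 libraries high in Bdnf, since r over the other 7 was 0.509. Over the 10 libraries, a positive r at least 0.9 in size was found with 38 features for Grin1, 26 for Grin2b and 13 for Ntrk2, and a negative r of that size with 31, 6 and 1 features. For Bdnf, whose values over the 10 libraries form separate clusters, the numbers were 50 and 27.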

How the data were processed

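RNA-seq was made from 10 fetal cortices, 5 per group. The submitters' processing notes list bcl2fastq, STAR 2.0.4b, Subread, featureCounts 1.45 and the build Rnor_5.0. Each deposited file gives raw read counts per Ensembl gene, which were the values tested. The deposited CPM is the count over the library's summed counts, scaled to a common total, and the deposited RPKM is that CPM per kilobase of listed exon length. Both relations held for each feature to within 7.09e-11.

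The 4 genes, the lists and the tests were chosen with earlier results of these data known. The genes named are these 4 and, for each, the feature with the most similar profile. A list of other neurotrophin and glutamate receptor genes and a list of cell type markers were planned by symbol and were not analysed here, because 0 identifiers could be paired with symbols by the table used. The tissue was therefore not checked against its markers.

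Counts were filtered with filterByExpr, scaled by TMM (factors from 0.983 to 1.02) and tested with edgeR 4.0.16 in R 4.3.3 (glmQLFit, glmQLFTest), with Benjamini-Hochberg adjustment over 14400 features. The SE is the log2 fold change divided by the square root of F, and the 95% interval uses the total degrees of freedom of the fit. Log2 CPM has TMM factors and a prior count of 2. Correlations used 100000 permutations over 10 libraries and all permutations over 7. Alternatives were DESeq2 1.42.0, limma 3.58.1, exact permutation, other scalings and filters, 1 surrogate variable (sva 3.50.0) and fits without each library in turn. The tests were tried on simulated data. No pair of libraries held identical counts (0 pairs).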

Additional observations from a re-analysis of the deposited data

How the results depend on the processing

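No fit carried any of the 4 genes past an adjusted p of 0.05, and none changed the direction of a gene's log2 fold change. Over the 9 planned and 2 added alternatives that were not single-library fits, Ntrk2 ran from 0.12 to 0.15, Grin1 from 0.0996 to 0.14, Grin2b from 0.12 to 0.17 and Bdnf from -0.31 to -0.095. The lower end for the 3 receptor genes came with scaling by library size alone, which moved the median of all features to -0.029. The number of features past an adjusted p of 0.05 was 7 with DESeq2, 1 with 1 surrogate variable and 1 with the first component as covariate, and none of these was among the 4 genes. The last 2 fits called the same feature, ENSRNOG00000031033. The cause was not tested. DESeq2 gave no adjusted p for Bdnf, whose mean count fell below its independent filter. Without each library the count of called features stayed at 0, and Bdnf ran from -0.42 to -0.006. The difference in the log2 ratio of Grin2b to Grin1 ran from -0.038 to 0.094 and that of Ntrk2 to Bdnf from 0.16 to 0.51 without each library. Bdnf held as few as 72 counts, and Poisson error of the counts equalled 14.5% of its variance within a group. The source of the rest was not tested. No paired analysis was possible because replicate numbers follow accession order only.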
